A study of Mus musculus with 8 samples.

Results

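Interleukin and interferon receptor genes encode the surface chains through which T cells read cytokines. Most of them belong to the class I and class II cytokine receptors, which carry Janus kinases on their cytoplasmic tails and signal through STAT factors, while the IL-1 and IL-17 receptor chains signal through other adaptors. In T helper cells the set of receptor chains on the surface helps to decide which lineage signals are heard: IL-6 and IL-21 receptors serve Th17 differentiation, IL-12 and interferon-γ receptors Th1 differentiation, and IL-4 receptors Th2 differentiation. The genes described here were chosen by symbol, as all probe sets that the array annotation gives to 36 listed receptor genes. Of these, 33 genes had at least 1 probe set with a single symbol, and together they held 66 of the 45037 probe sets tested. A single probe set measured 13 of them, and 20 had more than 1. Il2rg, Il11ra1 and Il1rl1 had no such probe set and were not analysed here, and 1 probe set annotated to both Csf2rb2 and Csf2rb was not used.

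The values came from 8 Affymetrix Mouse Genome 430 2.0 arrays of CD4 T cells from C57BL/6 mice, sorted as naive cells, grown on CD3 and CD28 antibodies and held for 48 h in Th17 conditions. The 4 groups of 2 arrays were RORγt-deficient cells with digoxin, RORγt-deficient cells with DMSO, wildtype cells with digoxin and wildtype cells with DMSO. RORγt is a nuclear receptor needed for Th17 differentiation, and digoxin is a cardiac glycoside whose classical target is the Na,K-ATPase. The labels give neither the digoxin dose, the age of the mice nor the allele behind the deficiency. They call the replicates biological without saying whether these came from separate animals, so the p-values speak for the scatter among 8 arrays, part of which may be technical.

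All values are on the log2 scale, and each probe set is centred on its average in wildtype DMSO cells, which leaves that group at 0 and removes the expression level. Before centring, the range in which a probe set's lowest array fell could be read from the binary step of the deposited numbers. The lowest level was 8 or above for 19 receptor probe sets, 4 to 8 for 30 and 2 to 4 for 17. All 9 probe sets of the CD4 T cell markers Cd3d, Cd3e, Cd3g, Cd4, Cd28, Lat and Thy1 had a lowest level of 8 or above, while none of the 11 B cell, 9 myeloid, 9 basophil and mast cell, 10 NK and CD8 T cell and 5 innate lymphoid and eosinophil marker probe sets did. No probe set of the RORγt gene was analysed here, and the genotype labels therefore have no check on their target. In bulk RNA, fewer cells with a transcript and less transcript per cell cannot be told apart.

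The receptor genes with a difference of at least 0.5 between groups whose arrays did not overlap were Il12rb2, Il13ra1 and Il2ra. The 250 bases before the annotated start of each gene are shown because these are the genes on which the results below turn, and so that their upstream regions can be compared. The sequences are those of RefSeq for GRCm38.p6 and are written along the gene's own strand. The Il12rb2 window lies at chr6:67376189-67376438 on the minus strand, the Il13ra1 window at chrX:36111858-36112107 on the plus strand and the Il2ra window at chr2:11642542-11642791 on the plus strand. Capitals mark the match to the STAT motif.
Il12rb2: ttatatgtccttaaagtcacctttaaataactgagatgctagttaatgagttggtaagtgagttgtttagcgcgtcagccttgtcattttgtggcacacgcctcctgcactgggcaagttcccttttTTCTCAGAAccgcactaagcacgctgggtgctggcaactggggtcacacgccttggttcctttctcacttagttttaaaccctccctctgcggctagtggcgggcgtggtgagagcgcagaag
Il13ra1: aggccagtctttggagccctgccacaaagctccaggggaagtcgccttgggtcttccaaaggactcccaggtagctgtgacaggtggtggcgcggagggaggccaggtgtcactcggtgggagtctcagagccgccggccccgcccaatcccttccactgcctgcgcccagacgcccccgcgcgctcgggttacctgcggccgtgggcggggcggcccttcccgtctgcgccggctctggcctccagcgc
Il2ra: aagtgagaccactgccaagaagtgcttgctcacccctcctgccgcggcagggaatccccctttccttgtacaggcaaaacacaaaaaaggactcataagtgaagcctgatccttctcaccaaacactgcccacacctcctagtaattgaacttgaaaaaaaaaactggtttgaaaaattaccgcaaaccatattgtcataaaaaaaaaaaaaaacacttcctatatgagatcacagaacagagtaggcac

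The windows differ in base composition, with 50% G and C in Il12rb2, 70.8% in Il13ra1 and 42.4% in Il2ra, and with 10, 21 and 3 CG dinucleotides in that order. Each was searched on both strands for the core motif of ROR factors, AGGTCA, for the STAT motif TTCNNNGAA and for the AP-1 motif TGANTCA. The only match in the 3 windows was TTCTCAGAA in Il12rb2, at positions -123 to -115 relative to the start. Promoter windows, 30 in number, were held for 26 of the 33 receptor genes. Repeated windows of a gene were removed for the receptors but not among all windows. The STAT motif stood in 5 of the 30 (Il12rb2, Il18r1, Il1r2, Csf2rb2 and Ifnar2), against 7.02% of all 32851 windows of this length. The ROR motif stood in 2, of Il21r and Lifr, against 14% of all windows, and the AP-1 motif in 3, of Il15ra, Il17rb and Il5ra, against 6.75%. A match describes the letters of the window and does not show that a factor binds there.

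RORγt-deficient cells were compared with wildtype cells in DMSO, to ask which receptor genes depend on RORγt in Th17 culture. Il12rb2, which encodes the signalling chain of the IL-12 receptor and is a mark of cells able to respond to IL-12, was the only receptor gene called at an adjusted p under 0.05. It stood at 0.67 and 0.77 on the RORγt-deficient DMSO arrays, against -0.10 and 0.10 on the wildtype DMSO arrays. Both RORγt-deficient arrays lay above both wildtype arrays. The difference was 0.72 ± 0.13 (limma SE, n = 2 arrays per group), or 1.65-fold, with an adjusted p of 0.0432. In the same comparison 275 of all probe sets (0.611%) were called, 83 of them higher (0.184%). The Il12rb2 call was lost when any of the 8 arrays was left out, with differences from 0.62 to 0.82 and adjusted p from 0.0548 to 0.36. Il12rb1, which encodes the chain shared by the IL-12 and IL-23 receptors, stood at 0.02 ± 0.12 for its 1 probe set, with a 95% interval from -0.25 to 0.29.

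**Figure D1:**
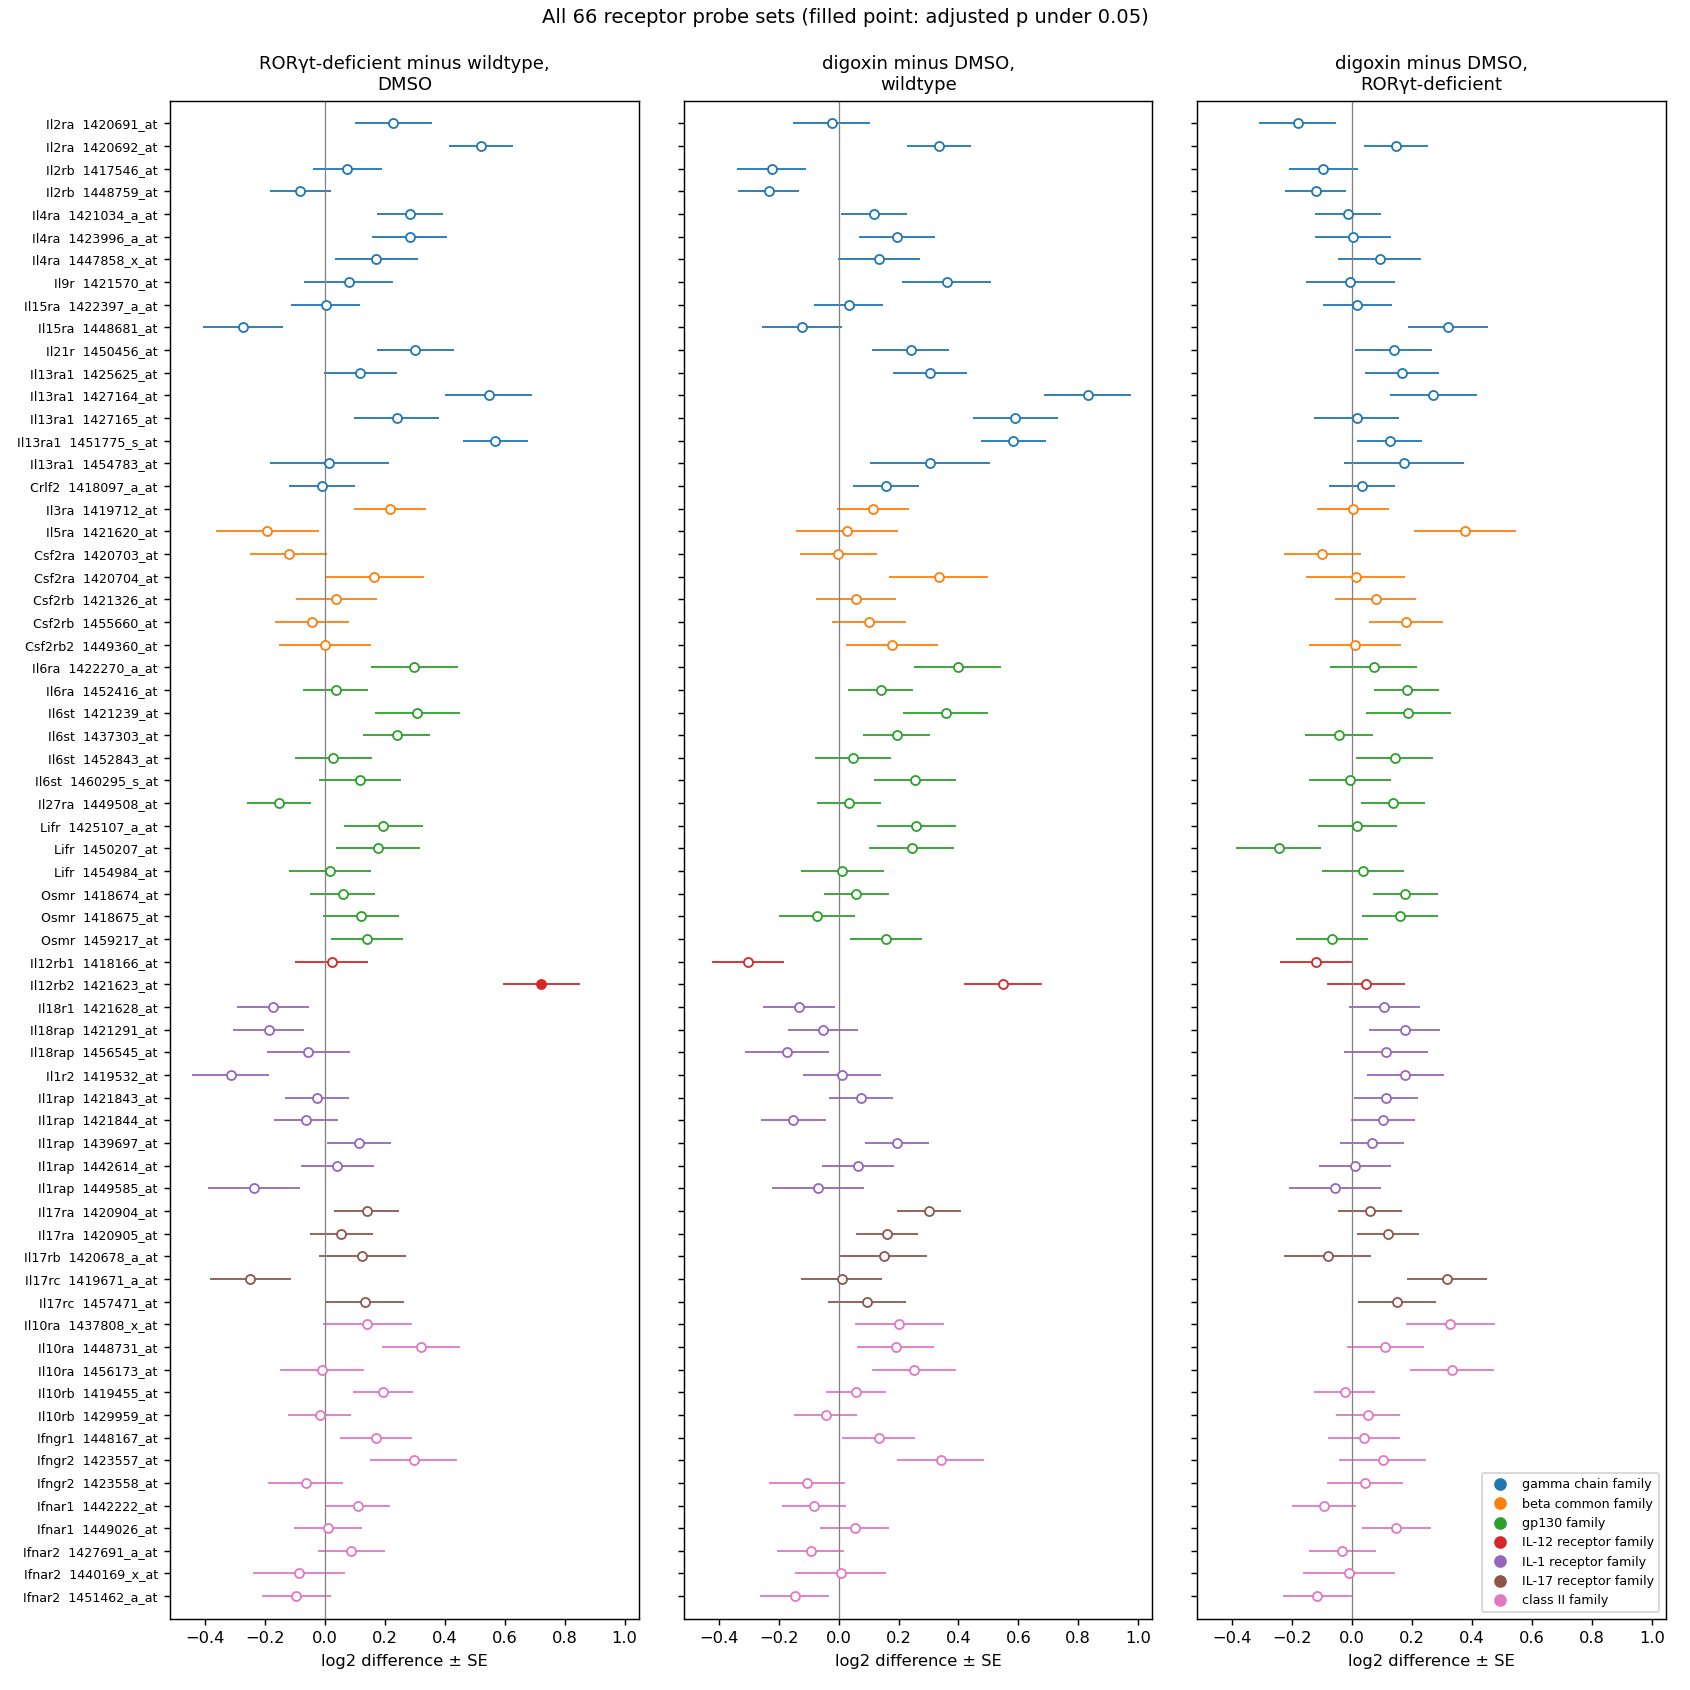
Log2 difference with its SE (x axis) for each of the 66 receptor probe sets (y axis, by family), for RORγt-deficient minus wildtype cells in DMSO, for digoxin minus DMSO in wildtype cells and for digoxin minus DMSO in RORγt-deficient cells. The only filled point, an adjusted p under 0.05, is Il12rb2 at 0.72 in the left panel.

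Il2ra encodes the high-affinity IL-2 receptor chain CD25 of activated and regulatory T cells, and its 2 probe sets differed. On probe set 1420692_at it stood at 0.56 and 0.48 in RORγt-deficient DMSO cells, against -0.04 and 0.04 in wildtype DMSO cells, with no overlap. This difference was 0.52 ± 0.11, and its adjusted p of 0.0795 missed the threshold. On probe set 1420691_at the values were 0.16 and 0.29 in RORγt-deficient cells, against -0.16 and 0.16 in wildtype cells, with a difference of 0.23 ± 0.13 and groups that barely missed each other. Both probe sets had a lowest level of 8 or above.

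Il13ra1 encodes a receptor chain that binds IL-13 and pairs with the IL-4 receptor chain, and 5 probe sets measured it. Probe set 1451775_s_at stood at 0.54 and 0.59 in RORγt-deficient DMSO cells, against -0.07 and 0.07 in wildtype DMSO cells (difference 0.57 ± 0.11, adjusted p = 0.0601). Probe set 1427164_at stood at 0.47 and 0.62, against -0.21 and 0.21 in wildtype DMSO cells (0.55 ± 0.14, adjusted p = 0.198). In both probe sets every RORγt-deficient array lay above every wildtype array, and neither difference was called. The other 3 probe sets differed by 0.24 ± 0.14 (1427165_at), 0.12 ± 0.12 (1425625_at) and 0.01 ± 0.20 (1454783_at). Probe set 1425625_at had a lowest level of 2 to 4. The spread of 0.55 between the probe sets of Il13ra1 was the widest among the 20 receptor genes with more than 1 probe set, whose median spread was 0.24. Spread here is the highest minus the lowest difference, which tends to grow with the number of probe sets, and 12 of these genes had 2.

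**Figure D2:**
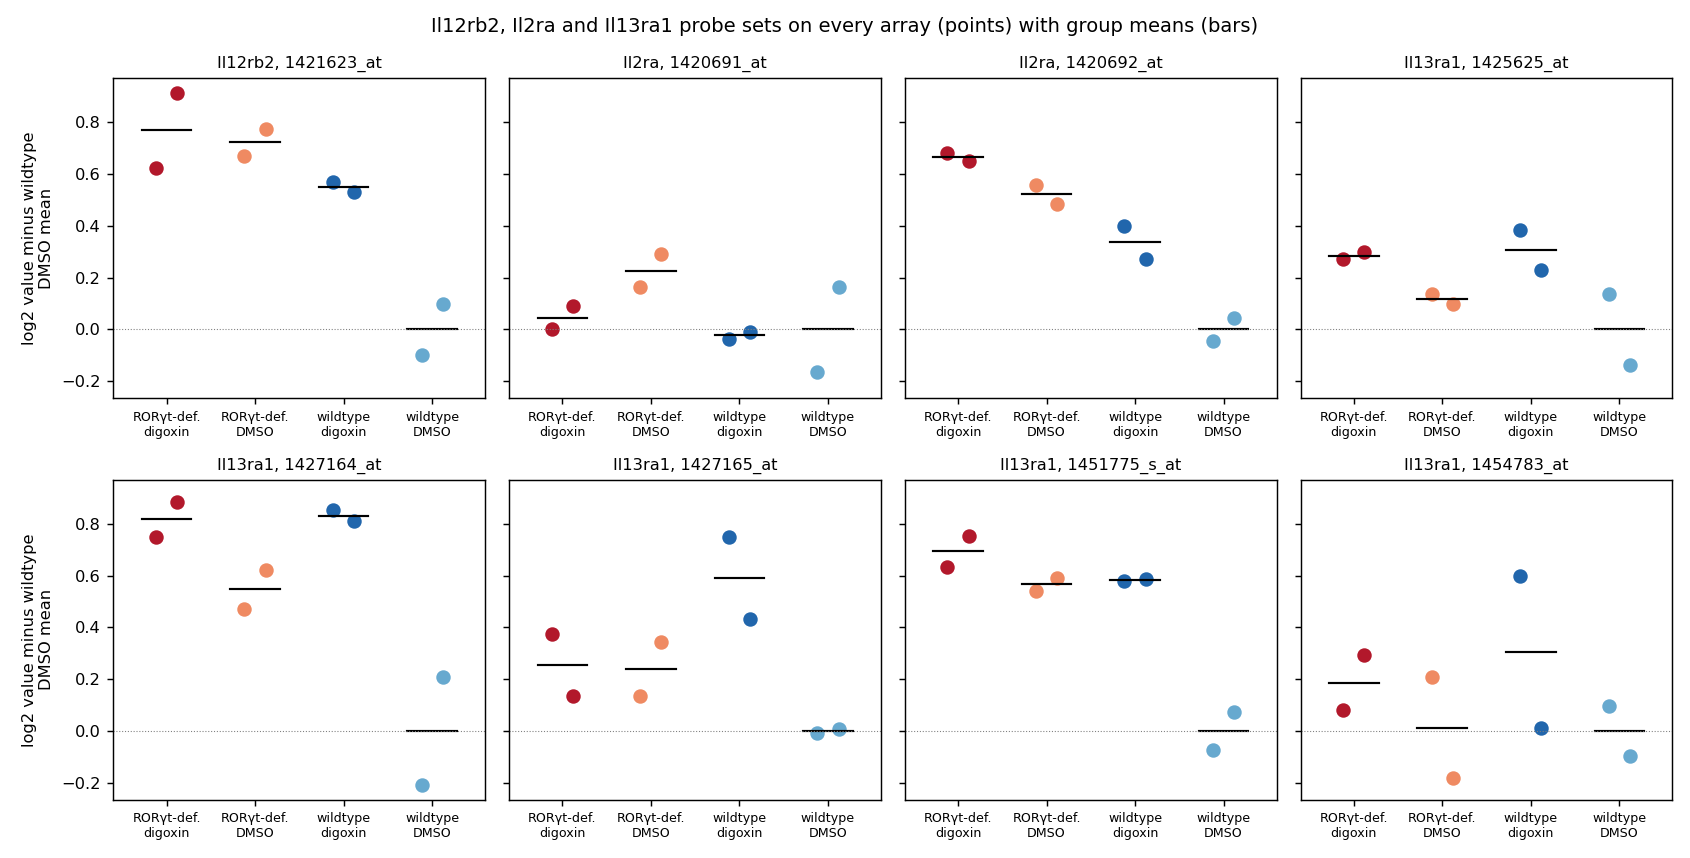
Log2 value of each array minus the wildtype DMSO mean (y axis) for the probe sets of Il12rb2, Il2ra and Il13ra1 in the 4 groups (x axis); points are arrays and bars are group means. Il12rb2 lies between 0.53 and 0.91 on the 6 arrays outside the wildtype DMSO group, which stands at -0.10 and 0.10, while the 5 probe sets of Il13ra1 differ in size.

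Other receptors of the gamma chain family were not called. Il4ra, the IL-4 receptor chain, stood higher in RORγt-deficient cells on its 3 probe sets, by 0.28 ± 0.11, 0.28 ± 0.13 and 0.17 ± 0.14. Il21r, the receptor chain for IL-21, a cytokine that Th17 cells make and respond to, stood at 0.31 and 0.29 in RORγt-deficient DMSO cells, against 0.04 and -0.04 in wildtype DMSO cells (0.30 ± 0.13, adjusted p = 0.525). Il2rb, the signalling chain for IL-2 and IL-15, differed by 0.07 ± 0.11 and -0.08 ± 0.10. Il15ra, which presents IL-15, differed by -0.27 ± 0.13 on 1 probe set and 0.00 ± 0.11 on the other. Il9r, the IL-9 receptor chain, and Crlf2, a chain of the receptor for TSLP, stood at 0.08 ± 0.15 and -0.01 ± 0.11. Il13ra1 and Crlf2 are grouped with this family because they pair with or resemble its chains, though they do not use the gamma chain. Of its 17 probe sets, 9 were higher with no overlap (20.2% of all probe sets were) and 2 lower (20.1%), and the family's median difference was 0.17, against 0.01 over all probe sets. The 9 were all of Il2ra, Il4ra, Il13ra1 and Il21r, so genes with several probe sets count more than once.

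The gp130 family holds the receptor of IL-6, the cytokine that with TGF-β starts Th17 differentiation. Its IL-6-binding chain Il6ra stood at 0.28 and 0.32 in RORγt-deficient DMSO cells, against -0.11 and 0.11 in wildtype DMSO cells, on probe set 1422270_a_at (0.30 ± 0.14), and at 0.03 and 0.04, against -0.04 and 0.04, on probe set 1452416_at. Il6st, which encodes the shared signalling chain gp130, differed by 0.31 ± 0.14, 0.24 ± 0.11, 0.12 ± 0.14 and 0.03 ± 0.13 on its 4 probe sets. None of these differences was called, and the 95% interval of the largest reached from -0.01 to 0.63. Il27ra, the IL-27 receptor chain, stood at -0.15 and -0.15 in RORγt-deficient cells, against 0.01 and -0.01 in wildtype cells (-0.15 ± 0.11, adjusted p = 0.73). The LIF receptor gene Lifr and the oncostatin M receptor gene Osmr, with 3 probe sets each, ranged from 0.02 to 0.19 and from 0.06 to 0.14.

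In the IL-1 receptor family, 7 of 9 probe sets lay below 0 in RORγt deficiency, with a median of -0.06. Il1r2, which encodes a decoy receptor for IL-1, stood at -0.41 and -0.22 in RORγt-deficient DMSO cells, against 0.07 and -0.07 in wildtype DMSO cells. That difference, -0.32 ± 0.13, was the lowest among the receptors and was not called (adjusted p = 0.5). Il18r1 and Il18rap, the chains of the IL-18 receptor, which acts on Th1 cells, stood at -0.17 ± 0.12 and, on 2 probe sets, at -0.19 ± 0.12 and -0.06 ± 0.14. The 5 probe sets of Il1rap, the accessory chain of the IL-1 and IL-33 receptors, ranged from -0.24 to 0.11.

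The IL-17 receptor family was not called either. Il17ra, the common chain for IL-17 cytokines, differed by 0.14 ± 0.11 and 0.05 ± 0.10, Il17rb, the IL-25 receptor chain, by 0.12 ± 0.15, and Il17rc, the partner of Il17ra, by 0.13 ± 0.13 and -0.25 ± 0.13. In the class II family, Il10ra, the ligand-binding chain of the IL-10 receptor, stood at 0.28 and 0.36 in RORγt-deficient DMSO cells, against 0.01 and -0.01 in wildtype DMSO cells, on probe set 1448731_at (0.32 ± 0.13, adjusted p = 0.487). Its other probe sets, both with a lowest level of 2 to 4, differed by 0.14 ± 0.15 and -0.01 ± 0.14. The interferon-γ receptor genes stood at 0.17 ± 0.12 for Ifngr1 and at 0.30 ± 0.15 and -0.06 ± 0.13 for the 2 probe sets of Ifngr2. The second chain of the IL-10 receptor, Il10rb, differed by 0.19 ± 0.10 and -0.02 ± 0.10, and the 5 probe sets of the type I interferon receptor genes Ifnar1 and Ifnar2 ranged from -0.10 to 0.11. The beta common family, the receptors for IL-3, IL-5 and GM-CSF (Il3ra, Il5ra, Csf2ra, Csf2rb and the mouse IL-3 receptor chain Csf2rb2), ranged from -0.19 to 0.22 over 7 probe sets. Csf2rb and Csf2rb2 are close copies, so their signals may not be separate.

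Counted over all 66 probe sets, small differences in RORγt deficiency lay more often above 0 than below, with 46 above and a median of 0.08, against a median of 0.01 over all probe sets. Groups did not overlap for 25 receptor probe sets that were higher in RORγt-deficient cells, where 20.2% of all probe sets were, and for 8 that were lower, where 20.1% of all probe sets were. An unadjusted p under 0.05 was reached by 9 receptor probe sets, 8 higher and 1 lower, and by 9.06% of all probe sets. The count of higher probe sets varied with the level: 10 of 19 with a lowest level of 8 or above (18% of all such probe sets), 10 of 30 at 4 to 8 (19.5%) and 5 of 17 at 2 to 4 (22.3%). Among the 10 at 8 or above, Il2ra, Il4ra and Il17ra each count more than once. In the same order of levels, 2 (34% of all such probe sets), 5 (21.2%) and 1 (11.3%) were lower with no overlap. The CD4 T cell markers mostly stood higher, with 7 of 9 probe sets higher with no overlap. Their median was 0.18, with Cd3g at 0.43 and Cd3e at 0.34, while Lat was lower with no overlap, at -0.14. None of the 9 was called. Among the NK and CD8 T cell markers, Klrd1 was called at 1.38 ± 0.11 (adjusted p = 0.00148), 4 of 10 probe sets were higher with no overlap, and the median was 0.20. The 11 B cell marker probe sets had a median of 0.13, with Ebf1 from 0.13 to 0.47 on its 5 probe sets, Ms4a1 at 0.01 and 0.04 and Pax5 at -0.14 and -0.08. Cd79a stood at 0.26 and Cd79b at 0.08. The part of these markers in the receptor values was not tested.

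**Figure D3:**
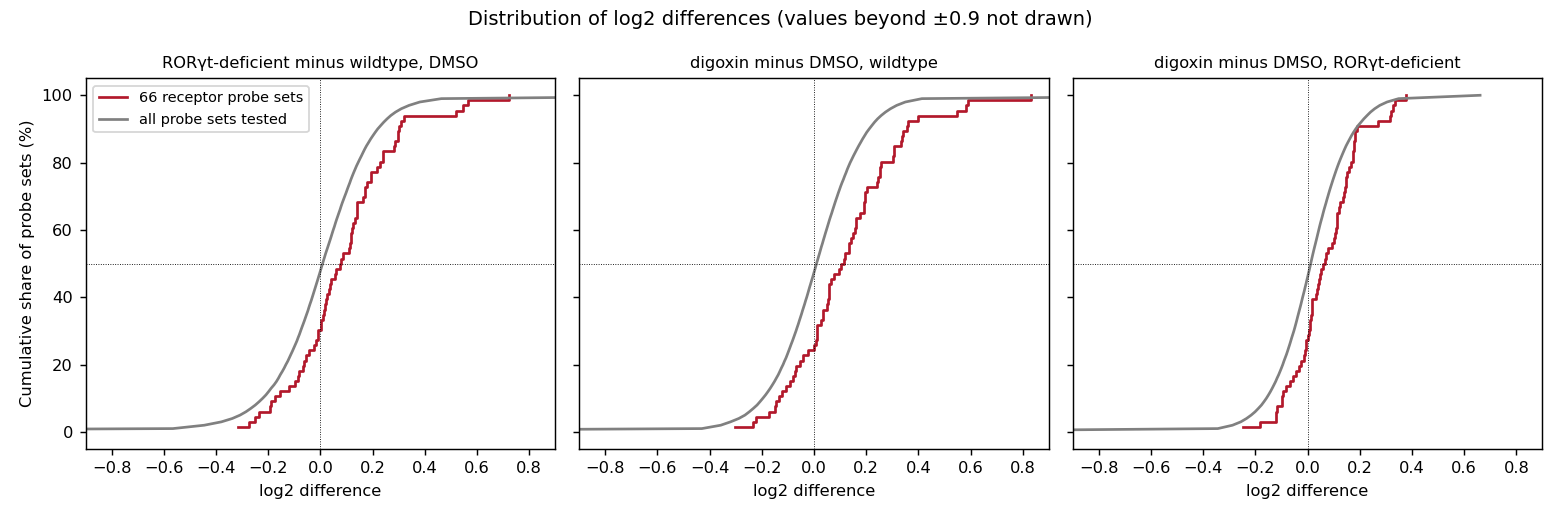
Cumulative share of probe sets (y axis, percent) by log2 difference (x axis) for the 66 receptor probe sets and all 45037 probe sets, in 3 comparisons. The receptor curve crosses 50% at 0.08 for RORγt deficiency, 0.11 for digoxin in wildtype cells and 0.06 for digoxin in RORγt-deficient cells, against 0.01 over all probe sets in each.

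Digoxin was compared with DMSO in wildtype cells, the setting in which RORγt is present. No receptor probe set was called by limma, against 0.0622% of all probe sets (28, of which 0.0355% higher and 0.0266% lower), and 13 receptor probe sets, 11 higher and 2 lower, had an unadjusted p under 0.05, as did 6.26% of all probe sets. This comparison and that of RORγt deficiency use the same wildtype DMSO arrays, so their values are not independent. The largest difference was that of Il13ra1, which on probe set 1427164_at stood at 0.85 and 0.81 in wildtype digoxin cells, against -0.21 and 0.21 in wildtype DMSO cells (0.83 ± 0.14, 1.78-fold, adjusted p = 0.118). Its probe set 1451775_s_at stood at 0.58 and 0.59 in wildtype digoxin cells, against -0.07 and 0.07 (0.58 ± 0.11, adjusted p = 0.153), and 1427165_at at 0.75 and 0.43, against -0.01 and 0.01 (0.59 ± 0.14, adjusted p = 0.392). All 3 had digoxin arrays above both DMSO arrays, and the remaining Il13ra1 probe sets differed by 0.31 ± 0.12 and 0.30 ± 0.20.

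Il12rb2 stood at 0.57 and 0.53 in wildtype digoxin cells, against -0.10 and 0.10 in wildtype DMSO cells, with no overlap. This difference, 0.55 ± 0.13, was not called (adjusted p = 0.383). Its partner Il12rb1 stood at -0.22 and -0.39 in digoxin, against -0.02 and 0.02 in DMSO (-0.30 ± 0.12, adjusted p = 0.766), so the 2 chains of the IL-12 receptor lay on opposite sides of 0. Il2ra stood at 0.40 and 0.27 on probe set 1420692_at in digoxin, against -0.04 and 0.04 in DMSO (0.34 ± 0.11), and at -0.02 ± 0.13 on the other. Il2rb was at -0.22 ± 0.11 and -0.23 ± 0.10, with both digoxin arrays below both DMSO arrays on each probe set. Of the receptors that serve Th17 differentiation, Il6ra differed by 0.40 ± 0.14 and 0.14 ± 0.11, Il6st by 0.36 ± 0.14, 0.25 ± 0.14, 0.19 ± 0.11 and 0.05 ± 0.13, and Il21r by 0.24 ± 0.13. Il17ra stood at 0.33 and 0.28 in digoxin, against 0.01 and -0.01 in DMSO, on probe set 1420904_at (0.30 ± 0.11, adjusted p = 0.708).

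Over the 66 probe sets the median digoxin difference in wildtype cells was 0.11, against 0.01 over all probe sets. Groups did not overlap for 28 receptor probe sets that were higher in digoxin (18.7% of all probe sets) and for 8 that were lower (17.9%). By level, 11 of 19 receptor probe sets at 8 or above were higher with no overlap (14.6% of all such probe sets), 9 of 30 at 4 to 8 (18.3%) and 8 of 17 at 2 to 4 (21.6%). In the same order of levels, 4 (30.8%), 4 (18.3%) and 0 (10.6%) were lower with no overlap. The gp130 family had 9 of 13 probe sets higher with no overlap, the gamma chain family 9 of 17 and the IL-1 receptor family 1 of 9. In all these counts a gene can count more than once. The CD4 T cell markers had 6 of 9 probe sets higher with no overlap and 1 lower, that of Lat at -0.06. Their median was 0.16, and their part in the receptor values was not tested. The B cell markers had a median of 0.15, with Ebf1 from 0.13 to 0.77 on its 5 probe sets, Ms4a1 at -0.15 and 0.05 and Pax5 at -0.14 and 0.08. Cd79a stood at 0.48 and Cd79b at 0.16. The NK and CD8 T cell markers had a median of 0.09. Among them the NK receptor gene Klrd1, also known on activated T cells, was called at 1.36. Eomes stood at 0.40 and 0.15, Ncr1 at 0.10 and Cd8b1 at 0.03, while Cd8a ranged from -0.06 to 0.12. The myeloid markers had a median of 0.12, with 6 probe sets above 0 and 3 below, from Lyz2 at -0.11 to Adgre1 at 0.36. The basophil and mast cell markers had a median of 0.12. The innate lymphoid and eosinophil markers had a median of 0.05, with 3 probe sets above 0 and 2 below. They ranged from Hpgds at -0.12 to Gata1 at 0.40.

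Digoxin was also compared with DMSO in RORγt-deficient cells, to ask what the drug changes where RORγt is missing. No receptor probe set was called by limma or reached 0.5, against 0.00222% of all probe sets called (1), and 3 had an unadjusted p under 0.05, where 3.41% of all probe sets did. The largest was that of Il5ra, an IL-5 receptor chain with a lowest level of 2 to 4, at 0.38 ± 0.17, and the lowest that of Lifr on probe set 1450207_at at -0.25 ± 0.14. Il12rb2 stood at 0.62 and 0.91 in RORγt-deficient digoxin cells, against 0.67 and 0.77 in RORγt-deficient DMSO cells, and these groups overlapped (0.05 ± 0.13). Il13ra1 differed by 0.27 ± 0.14 and 0.13 ± 0.11 on probe sets 1427164_at and 1451775_s_at. The probe sets of Il2ra went opposite ways, by 0.15 ± 0.11 on 1420692_at and by -0.18 ± 0.13 on 1420691_at, each with no overlap. Il10ra stood at 0.13 and 0.52 in digoxin, against 0.05 and -0.07 in DMSO, on probe set 1456173_at (0.33 ± 0.14). This probe set and 1437808_x_at (0.33 ± 0.15) had a lowest level of 2 to 4. Probe set 1448731_at, with a lowest level of 4 to 8, differed by 0.11 ± 0.13, and its groups overlapped. Of the 66 probe sets, 19 were higher in digoxin with no overlap (16.5% of all probe sets) and 3 lower (11.7%).

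The digoxin effects of the genotypes were then set against each other, as the effect in RORγt-deficient cells minus that in wildtype cells. No receptor and no other probe set (0%) was called for this difference by limma, and 6 receptor probe sets had an unadjusted p under 0.05, against 2.78% of all probe sets. Among these 6, the difference was -0.50 ± 0.18 for Il12rb2, with a 95% interval from -0.91 to -0.09, and -0.57 ± 0.20, -0.56 ± 0.20 and -0.46 ± 0.15 for 3 probe sets of Il13ra1. The others were Lifr on probe set 1450207_at at -0.49 ± 0.20 and Il15ra on 1448681_at at 0.44 ± 0.19. The remaining Lifr probe sets stood at -0.24 and 0.02, and the remaining Il15ra probe set at -0.02. Every Lifr probe set had a lowest level of 2 to 4. The adjusted p was 1 for each of the 66 probe sets, so the digoxin differences are not shown to differ between the genotypes. Across the 66 probe sets the digoxin differences of the genotypes, which share no array, had a Pearson correlation of 0.22, and across all probe sets 0.29, given as a description because probe sets of the same arrays are not independent.

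**Figure D4:**
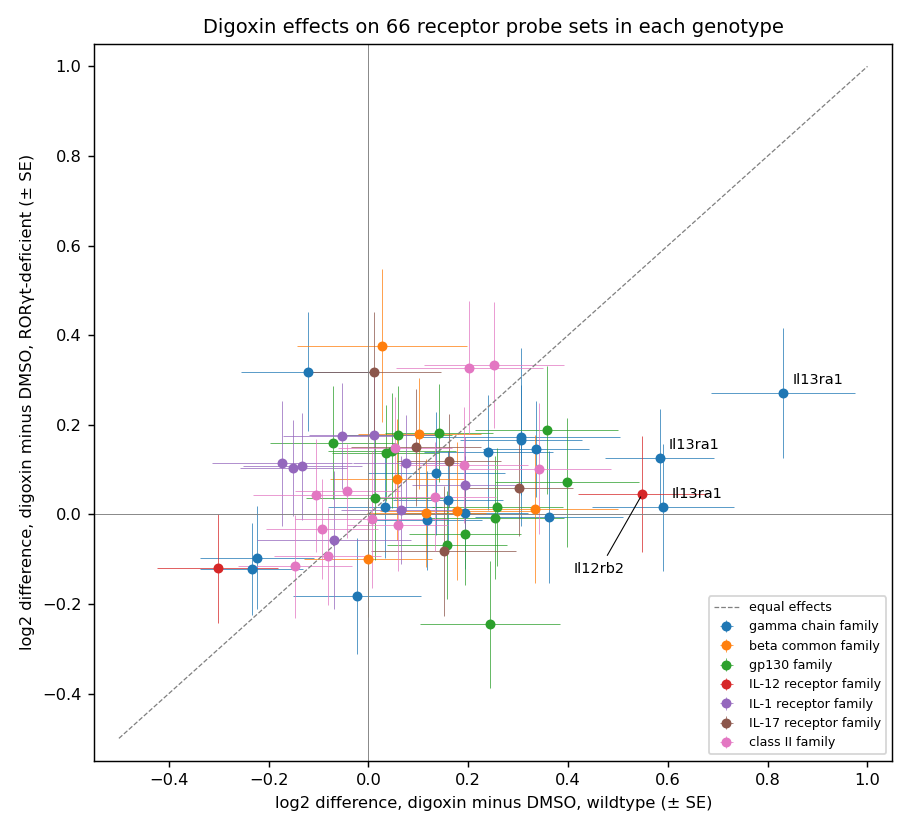
Log2 difference of digoxin minus DMSO for 66 receptor probe sets in wildtype cells (x axis) and in RORγt-deficient cells (y axis), with SE as error bars and the line of equal effects. Il12rb2 and the labelled Il13ra1 probe sets with differences over 0.5 lie from 0.55 to 0.83 in wildtype cells and from 0.02 to 0.27 in RORγt-deficient cells. These points were picked by their wildtype difference, a choice that favours smaller values on the other axis. No receptor was called for a difference between the genotypes.

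Under digoxin, RORγt-deficient cells were compared with wildtype cells. No receptor probe set was called (0.00222% of all probe sets were, 1 in number) and 3 had an unadjusted p under 0.05, where 4.77% of all probe sets did. Il2ra on probe set 1420692_at stood at 0.68 and 0.65 in RORγt-deficient digoxin cells, against 0.40 and 0.27 in wildtype digoxin cells (0.33 ± 0.11, adjusted p = 0.918). Il12rb2 differed by 0.22 ± 0.13 and Il13ra1 by -0.01 ± 0.14 (1427164_at) and 0.11 ± 0.11 (1451775_s_at). On probe set 1427165_at, Il13ra1 stood at 0.37 and 0.14 in RORγt-deficient digoxin cells, against 0.75 and 0.43 in wildtype digoxin cells. Both RORγt-deficient arrays lay below both wildtype arrays, and this difference, -0.33 ± 0.14, was the lowest among the receptors and was not called. Its remaining probe sets differed by -0.02 ± 0.12 and -0.12 ± 0.20. Osmr stood at 0.15 and 0.41 in RORγt-deficient cells, against -0.14 and -0.00 in wildtype cells, on probe set 1418675_at (0.35 ± 0.13). The other Osmr probe sets differed by 0.18 ± 0.11 and -0.09 ± 0.12, and all had a lowest level of 2 to 4. Groups did not overlap for 15 receptor probe sets that were higher in RORγt-deficient cells (16.8% of all probe sets) and 7 that were lower (13.4%).

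Wildtype cells in digoxin were also set directly against RORγt-deficient cells in DMSO, to ask whether drug and deficiency left receptor genes at different values. No receptor and no other probe set (0%) was called by limma, and 4 receptor probe sets had an unadjusted p under 0.05, as did 5.04% of all probe sets. Il12rb2 stood at 0.57 and 0.53 in wildtype digoxin cells, against 0.67 and 0.77 in RORγt-deficient DMSO cells, a difference of -0.17 with a 95% interval from -0.46 to 0.12. For Il13ra1 on probe set 1451775_s_at the difference was 0.02, with an interval from -0.23 to 0.26. The 4 probe sets were Il12rb1 (-0.32 ± 0.12), Il2rb (-0.30 ± 0.11), Il13ra1 on 1427165_at (0.35 ± 0.14) and Il1r2 (0.33 ± 0.13), with adjusted p from 0.887 to 0.944. Groups did not overlap for 14 receptor probe sets that were higher in wildtype digoxin cells (15.7% of all probe sets) and 13 that were lower (14.2%).

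The ligands of these receptors, from a list of 27 measured genes with 30 probe sets, had 2 called probe sets in RORγt deficiency (0.611% of all probe sets were called) and 2 for digoxin in wildtype cells (0.0622%). Il17a, the signature cytokine of Th17 cells, changed by -2.11 ± 0.12 in RORγt deficiency and by -2.39 ± 0.12 with digoxin in wildtype cells. Il10, the ligand of Il10ra, rose by 1.45 ± 0.14 and 1.33 ± 0.14 in these comparisons. Il2, the ligand of Il2ra, stood at -0.50 ± 0.11 and -0.64 ± 0.11, and Csf2, the ligand of Csf2ra, at -0.52 ± 0.12 and -0.84 ± 0.12, and none of these was called. With digoxin in RORγt-deficient cells only Il17a was called among the ligands (0.00222% of all probe sets were), at -1.88 ± 0.12. The lowest level of the Il17a probe set was below 2 or could not be read, so whether its lowest arrays, those of RORγt-deficient digoxin cells at -3.87 and -4.12, were near the floor of the array is not known. In the same comparison the differences were small for Ebi3, Csf2 and Il2, from -0.26 to -0.16. The ligand list had medians of 0.08, 0.05 and -0.01 in these 3 comparisons.

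The kinases, STAT factors, inhibitors and adaptors that act below the receptors, 26 measured genes with 67 probe sets, held no called probe set in any of the 6 comparisons. In RORγt deficiency 8 of the 67 had an unadjusted p under 0.05, where 9.06% of all probe sets did, and the list's median was 0.00. Of the feedback inhibitor genes, Socs1 stood at 0.44 ± 0.13 on its 1 probe set and Socs3 at 0.35 ± 0.12, 0.34 ± 0.13 and 0.30 ± 0.15 on its 3. Others of this kind, named after their values were seen, lay lower. Cish stood at -0.02 and Socs5 at -0.06 and 0.07, while Socs4 ranged from -0.25 to 0.03 and Socs6 from -0.01 to 0.13. Socs2 reached 0.30 ± 0.12 on 1 of 6 probe sets and lay from 0.00 to 0.18 on the others. Pias1, which encodes an inhibitor of STAT signalling, reached 0.31 ± 0.13 on 1 of 4 probe sets and lay from -0.14 to 0.05 on the others. The rest of the 8, named after their values were seen, were Stat5a at 0.32 ± 0.13 and, on the lower side, Socs7 at -0.30 ± 0.12 and the phosphatase gene Ptpn2 at -0.60 ± 0.26, each on 1 probe set.

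With digoxin in wildtype cells 2 of the 67 signalling probe sets had an unadjusted p under 0.05, where 6.26% of all probe sets did. The first was of Socs3, at 0.31 ± 0.12, whose other probe sets stood at 0.14 and 0.03. The other was of Socs2, at 0.31 ± 0.14, on a probe set that differs from the highest in RORγt deficiency, with the remaining 5 from 0.02 to 0.21. Stat5a stood at 0.28 ± 0.13 and 0.19 ± 0.18, and Socs7 from -0.22 to 0.10 over 4 probe sets. With digoxin in RORγt-deficient cells 1 of the 67 did, where 3.41% of all probe sets did. It was of Socs6, at -0.46 ± 0.17, with a lowest level below 2 or not read, and the other Socs6 probe sets stood at 0.02 and -0.07. The next genes by adjusted p were also mixed, with Jak2 at -0.18 and -0.04, Pias1 from -0.27 to 0.02 and Traf6 from -0.20 to 0.12.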

How the data were processed

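Deposited log2 values covered 45101 probe sets, summarised with RMA per the submitters' processing notes, and the series' design text names GeneSpring GX 11.5. For each probe set the values of the 2 arrays of wildtype cells in DMSO sum to 0 within 1e-06, so the deposited log2 values are differences from their mean, a step no label records. The range of the lowest level was read from the binary step of the numbers, a reading that gave the right range for 98.6% of 2000 simulated probe sets. Leaving out 64 control probe sets, 45037 were fitted with limma 3.58.1 in R 4.3.3 as 4 group means over 8 arrays, and tested on simulated data. The fit had 4 residual and 5.8 prior degrees of freedom. The 6 comparisons were tested two-sided with Benjamini-Hochberg adjustment over all 45037 probe sets and called at an adjusted p under 0.05. Array values are given for receptors called or differing by at least 0.5 without overlap, with others added to describe each family after their values were seen. For the lists of ligands and signalling genes, up to 4 genes per comparison with the smallest adjusted p are named. Members and lists were chosen with earlier results of these data known. Errors written with ± are standard errors from limma, n = 2 per group, and the number of arrays limits precision. Gene symbols came from the array annotation (34958 probe sets with 1 symbol, 932 with several, 9211 with none), and promoters from RefSeq.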

Additional observations from a re-analysis of the deposited data

How the results depend on the processing

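The 1 receptor probe set called in RORγt deficiency, Il12rb2, became 0 with each of the 8 arrays left out in turn (lowest and highest count 0), 0 after quantile normalisation, which widens the wildtype DMSO arrays by construction (difference 0.61, adjusted p = 0.556), and 0 when the fit held just the groups being compared (adjusted p = 0.0825). The count was 2 over probe sets with a lowest level of 4 or above and 2 with array weights, where Il13ra1 on 1451775_s_at joined it (adjusted p = 0.0442 and 0.047), and 1 with 1 probe set per gene. All alternatives kept the direction of the Il12rb2, Il13ra1 and Il2ra differences of at least 0.5, but this was largely fixed beforehand. Leaving out 1 array cannot reverse a difference between groups that do not overlap, and a replicate block left that of Il12rb2 at 0.72. The other 5 comparisons called 0 receptors under each alternative. Over all probe sets the count for RORγt deficiency, 275, ranged from 21 to 318 with an array left out and was 5 after quantile normalisation, and that for digoxin in wildtype cells, 28, ranged from 3 to 25 and was 5. With the crossed numbering described next, these counts were 623 and 94.

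With the replicate number as a block, 1 receptor was called in RORγt deficiency, Il12rb2 (adjusted p = 0.0319), and 0 in the other comparisons, with 308 calls over all probe sets. Deviations of same-numbered arrays correlated from 0.30 to 0.46 among 3 groups and from -0.24 to -0.13 with wildtype DMSO. Same-numbered arrays thus varied together in those 3 groups and not with wildtype DMSO, and since not every pair did, the numbers were not taken to pair the samples. With the wildtype DMSO numbers crossed, an alternative chosen after seeing the data, 3 receptors were called in RORγt deficiency, Il12rb2 with Il2ra on 1420692_at and Il13ra1 on 1451775_s_at (adjusted p = 0.0321 for both Il2ra and Il13ra1).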
